A study of Homo sapiens with 40 samples.

Results

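The RNA-binding proteins described here are 10 partners of the IGF2BP proteins or core components of stress granules: ELAVL1, G3BP1, G3BP2, CAPRIN1, TIA1, TIAL1, PABPC1, PABPC4, YBX1 and FMR1. They were taken by name, as the rows of the count table whose Ensembl identifier belongs to these symbols. The choice was made with earlier results of these data known. All 10 were found among 19962 genes, and all 10 passed the filter on low counts that left 11428 genes for testing. The libraries come from RKO, an established human colorectal carcinoma line, in which a lentiviral guide pair with eBFP2 was added to cells that carry doxycycline (Dox)-inducible Cas9 and GFP, and eBFP2-positive cells were sorted. All 40 libraries, the controls included, therefore come from sorted pools that carry Cas9, GFP and a guide pair. The guide pairs were sgIGF2BP2, sgIGF2BP3 or sgAAVS1, the last cutting a control locus. Each of the 3 lines was given Dox (250 ng/mL for 72 hours) or DMSO. The sgIGF2BP2 line was also transfected with siControl, a non-targeting siRNA, or siIGF2BP2, and the sgIGF2BP3 line with siControl or siIGF2BP3, at 75 nM for 48 hours and without Dox or DMSO by their labels. This gives 10 groups of 4 libraries. Cells received 4-thiouridine at 250 µM for 2 hours before harvest, and the deposited counts do not separate labelled from unlabelled RNA. The labels describe the 4 replicates of a group as wells of cultured cells, and the p-values measure the spread between these samples, which may be technical.

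IGF2BP2 and IGF2BP3 are RNA-binding proteins that stabilise and store mRNAs in ribonucleoprotein particles, where ELAVL1, the poly(A)-binding proteins and YBX1 have been found with them. Stress granules form when translation initiation stalls and mRNPs condense, with G3BP1 and G3BP2 as the scaffold. CAPRIN1 binds G3BP and promotes granules, TIA1 and TIAL1 are aggregation-prone proteins that silence translation, and FMR1 is a translational repressor that also enters granules. PABPC1 and PABPC4 bind poly(A) tails, ELAVL1 (HuR) stabilises AU-rich mRNAs and YBX1 packages cytoplasmic mRNA. These are roles of the proteins, while the values here are levels of the mRNAs.

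The guides are shown because they define what was cut in each line and allow the member transcripts to be searched for similar sequence. They are printed 5′ to 3′ in lower case, without the adjacent bases.
sgIGF2BP2 guide 1: atatgtgacgttgacaacgg
sgIGF2BP2 guide 2: gtgcgctgaggttcaaccct
sgIGF2BP3 guide 1: tggcaccgactgatagagct
sgIGF2BP3 guide 2: gaagatactttctaggtccg
sgAAVS1 guide 1: cgctgtgccccgatgcacac
sgAAVS1 guide 2: ggcgcgtcgctcgctcgctc
On hg38, the first IGF2BP2 guide lies at chr3:185692722-185692741 in coding exon 5 of 16, and the second at chr3:185672630-185672649 in coding exon 10 of 16. The first IGF2BP3 guide lies at chr7:23319200-23319219 in coding exon 11 of 15, and the second at chr7:23470045-23470064 in coding exon 1. Against the annotated transcripts of the 10 members, the fewest mismatches of any of the 4 IGF2BP guides was 5, for the first IGF2BP3 guide, and 6 for the other 3. The AAVS1 guides had 6 and 4. The sequences of the siRNA pools are not given in the sources used here, so no such search was made for them.

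The targeted mRNAs fell in the libraries labelled as depleted. IGF2BP2 went from 85.3 ± 1.58 CPM (counts per 1000000 counts, scaled by TMM; SD, n = 4) with DMSO to 33.9 ± 3.50 with Dox in the sgIGF2BP2 line, 39.7% left, and from 108 ± 4.10 with siControl to 30.2 ± 1.08 with siIGF2BP2, 27.9% left. IGF2BP3 went from 180.2 ± 4.09 to 56.2 ± 3.62 CPM with Dox in the sgIGF2BP3 line, 31.2% left, and from 169.8 ± 4.78 to 24.7 ± 1.56 CPM with siIGF2BP3, 14.6% left. IGF2BP3 was also lower by 0.25 on the log2 scale after Dox in the sgIGF2BP2 line (log2 fold change -0.25, SE 0.04, adjusted p = 2.93e-06). Without Dox replicate 2 the change was -0.23 (adjusted p = 5.87e-05). Total counts per library ran from 10018181 to 24822807, and the members held 0.590% to 0.651% of them, with no member under 428 counts in any library. In the sgIGF2BP2 Dox group replicate 2 stood apart: its counts differed from those of the other 3 replicates by a chi-square per gene of 12.0 to 16.9, against 1.498 to 6.59 for the 57 other replicate pairs. Values without it are given beside the results of the sgIGF2BP2 Dox comparison that it changes. Among 5 epithelial markers, KRT8 (41.6 to 76.5 CPM), KRT18 (114 to 218 CPM) and EPCAM (12.3 to 15.99 CPM) were present, while KRT19 and CDH1 had no count in 36 and 32 libraries. Of 9 markers of fibroblasts, leukocytes and endothelium, COL1A2, DCN and CD3E were at 0 in all 40 libraries. PDGFRB, PTPRC, PECAM1 and VWF were at 0 in 34, 39, 30 and 22 libraries, and COL1A1 in 2. The leukocyte marker CD68 had counts in every library (1.11 to 3.52 CPM). The summed level of the 9 markers was 1.71 to 4.20 CPM.

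YBX1 and PABPC1 were by far the most abundant members per length. In CPM per kb of annotated exon, the median over 40 libraries was 742 for YBX1 and 659 for PABPC1, against 73.7 for PABPC4, 41.3 for CAPRIN1 and 31.2 for ELAVL1. G3BP1 and G3BP2 lay close together at 20.2 and 19.6, and their ranges overlapped. TIAL1 stood at 15.2, TIA1 at 7.46 and FMR1, encoding the fragile X protein, at 6.38. The ranges of TIA1 and FMR1 overlapped, as did those of YBX1 and PABPC1. This order rests on the union of annotated exons as the length. YBX1 and PABPC1 have 10 and 13 named pseudogenes, none of them in the count table, so how their reads were assigned is uncertain.

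**Figure D1:**
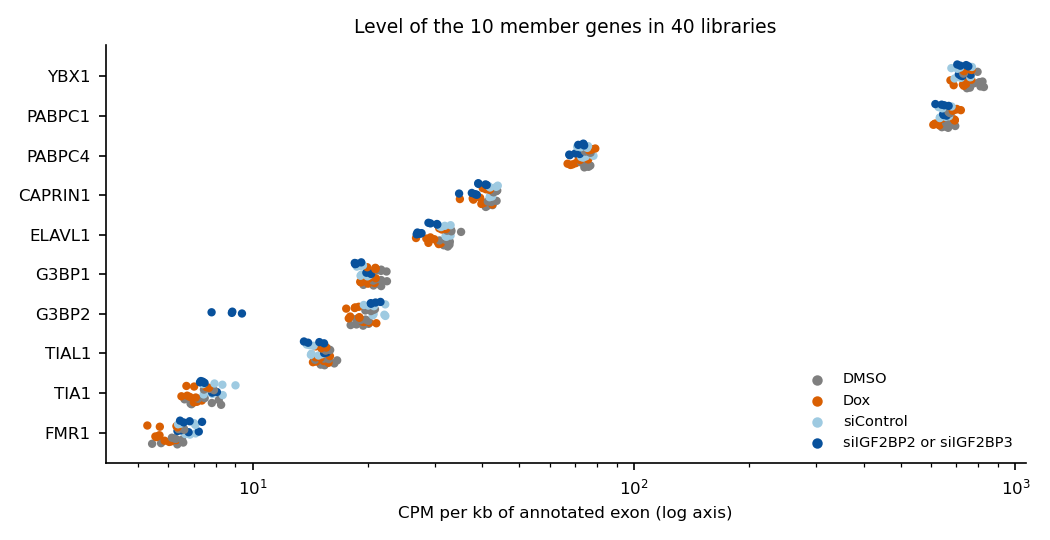
Level of each member gene in CPM per kb of annotated exon on a log axis, 1 point per library, coloured by treatment. YBX1 and PABPC1 lie far to the right, and the 4 siIGF2BP2 libraries of G3BP2 lie apart to the left of its other 36.

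For most members the groups differed little. The highest and lowest group means of a member were between 0.15 (TIAL1) and 0.29 (ELAVL1) log2 units apart for 9 of the 10, and 1.301 apart for G3BP2. The median of the members was 0.21 and that of all 11428 tested genes 0.31, and 130 tested genes had a range of at least that of G3BP2. When the group means of a member were put in order, every pair of neighbours overlapped in their library values for 9 members. For G3BP2 the lowest group was separate from the next. The share of all tested genes with such overlap was not computed, so this count does not set the 9 members apart from other genes. Within groups the coefficient of variation of CPM had a median between 1.91% (PABPC4) and 4.16% (TIA1), so a shift of several percent is near the limit of what 4 libraries resolve.

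Each treatment was compared with its control in 1 edgeR model of all 40 libraries, and a gene was called at an adjusted p under 0.05 over all 11428 genes. Shares of all genes are shares called at this threshold. They are no background for counts under an unadjusted p of 0.05, for which the share of all genes is not given. Induction in the sgAAVS1 line lowered 4 of 10 members (PABPC4, YBX1, PABPC1 and ELAVL1) and raised none, where 15.9% of all tested genes were called. Without sgAAVS1 DMSO replicate 4 or Dox replicate 2 only 1 of the 4, PABPC4, was called there. Induction in the sgIGF2BP2 line also lowered 4 (CAPRIN1, ELAVL1, FMR1 and YBX1) against a background of 20.4%, and 2 (CAPRIN1 and ELAVL1) without its Dox replicate 2. Induction in the sgIGF2BP3 line lowered 1, G3BP2, against 2.64%. siIGF2BP2 lowered 4 (G3BP2, ELAVL1, CAPRIN1 and PABPC4) and raised none. Of all genes 36.8% were called in either direction, so this share of the members is near the background, and 18.4% were called lower. With siIGF2BP3 edgeR called 0 members, 3 were under an unadjusted p of 0.05 (TIA1, CAPRIN1 and ELAVL1), DESeq2 called 0, and 2.34% of all genes were called. In the fit of only the groups compared CAPRIN1 passed (log2 fold change -0.09, adjusted p = 0.0400). The median log2 fold change of the members was -0.07 in the sgAAVS1, -0.09 in the sgIGF2BP2 and -0.07 in the sgIGF2BP3 Dox comparison, against 0.004, 0.008 and 0.003 over all genes. It was -0.02 with siIGF2BP2 and -0.009 with siIGF2BP3, against 0.01 and 0.002 over all genes. CPM is relative to the library's total, and in such bulk samples fewer cells of a type and less RNA per cell cannot be told apart.

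**Figure D2:**
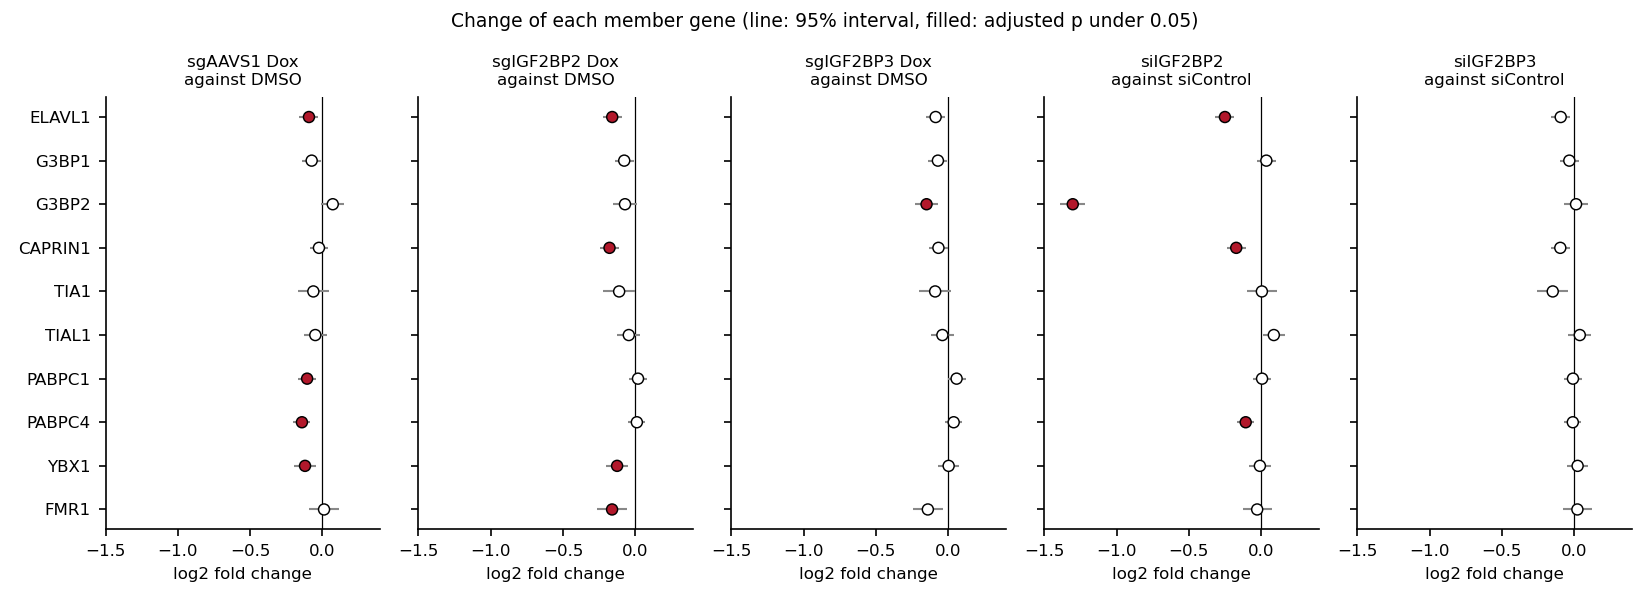
Log2 fold change of each member in the 5 comparisons of a treatment with its control, with the 95% interval as a line and called genes filled. G3BP2 with siIGF2BP2, at -1.304, lies far from all other points, which sit between -0.25 and 0.09.

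Differences between the treatments were tested directly. The sgIGF2BP2 Dox effect differed from the sgAAVS1 Dox effect for 2 members, PABPC4 and CAPRIN1, where 6.97% of all genes were called. The sgIGF2BP3 Dox effect differed from the sgAAVS1 Dox effect for 3, PABPC4, PABPC1 and G3BP2, against 7.78%. These comparisons and the sgAAVS1 comparison share the same 8 sgAAVS1 libraries. Between the sgIGF2BP3 and sgIGF2BP2 Dox effects edgeR called 0 members, 2 were under an unadjusted p of 0.05 (YBX1 and CAPRIN1), DESeq2 called 0, and 2.91% of all genes were called. The siIGF2BP3 and siIGF2BP2 effects differed for 2 members, G3BP2 and ELAVL1, against 18.7%. In 2 comparisons added after the data were seen, the siIGF2BP2 effect differed from the sgIGF2BP2 Dox effect for 2 members, G3BP2 and PABPC4, against 26.1%. The siIGF2BP3 effect minus the sgIGF2BP3 Dox effect gave 0 by edgeR, against 1.36% of all genes called, and 0 by DESeq2. For this difference 2 members were under an unadjusted p of 0.05 (G3BP2 and FMR1).

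The control comparisons also moved members. siControl against DMSO differed for 3 members in the sgIGF2BP2 line (G3BP1 and YBX1 lower, G3BP2 higher), where 18.4% of all genes were called. In the sgIGF2BP3 line it differed for 2 (G3BP1 and TIAL1, both lower), against 19.4%. With DMSO, the sgIGF2BP2 and sgAAVS1 lines differed for 0 members by edgeR and 0 by DESeq2, none under an unadjusted p of 0.05, and 0.0175% of all genes (2 of 11428) were called. The sgIGF2BP3 and sgAAVS1 lines with DMSO differed for 0 by both tools, with 2 members under an unadjusted p of 0.05 (G3BP2 and FMR1), and again 0.0175% of all genes were called. With siControl against DMSO 2 of the 3 tested epithelial markers were called lower in each line. Their summed level was 227 to 229.8 against 258 to 275 CPM in the sgIGF2BP2 line and 229.7 to 244 against 255 to 268 CPM in the sgIGF2BP3 line, without overlap, and its part in these member changes was not tested.

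G3BP2, the second G3BP scaffold (chr4:75642782-75724525, minus strand), was lower with siIGF2BP2 than in every other library of the study. Its level in the sgIGF2BP2 line was 159.9, 148.2, 159.0 and 149.0 CPM with siControl. With siIGF2BP2 it was 67.3, 63.3, 56.0 and 63.5 CPM. All 4 siIGF2BP2 libraries lay under all siControl libraries, and the lowest of the 36 libraries outside the siIGF2BP2 group held 126 CPM. The log2 fold change was -1.304 (SE 0.04, 95% interval -1.39 to -1.22, adjusted p = 2.86e-36), a change of -59.5%, and G3BP2 had the 9th largest fall of the 11428 genes. Leaving out any library of either group kept it between -1.34 and -1.26.

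No fall of this size was measured with the other ways of lowering an IGF2BP mRNA. In the same sgIGF2BP2 line G3BP2 was 144.3, 137.5, 141.9 and 134.0 CPM with DMSO and 128.2, 136.7, 136.6 and 129.3 CPM with Dox, and the groups overlapped (log2 fold change -0.07, 95% interval -0.15 to 0.01, adjusted p = 0.238). The siIGF2BP2 effect differed from this Dox effect by -1.23 (SE 0.06, adjusted p = 1.60e-26), with IGF2BP2 mRNA at 27.9% of its control in the first and 39.7% in the second. With siIGF2BP3 G3BP2 was 149.8 ± 4.13 CPM against 148.4 ± 8.42 with siControl (log2 fold change 0.01, 95% interval -0.07 to 0.09, adjusted p = 0.936). The siIGF2BP3 effect minus the siIGF2BP2 effect was 1.32 (SE 0.06, adjusted p = 2.01e-28). The summed level of the 5 epithelial markers was 189 to 226 CPM with siIGF2BP2 against 227 to 229.8 with siControl, with 1 of 3 tested markers called higher and 1 lower, and its part in the siIGF2BP2 results of any member was not tested. The summed level of the 9 markers of other cell types overlapped, at 1.85 to 3.18 against 2.03 to 3.24 CPM.

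In the sgIGF2BP3 line G3BP2 fell slightly on induction. It held 146.7, 141.7, 148.7 and 150.2 CPM with DMSO and 126.3, 132.9, 133.3 and 136.2 CPM with Dox, without overlap (log2 fold change -0.15, SE 0.04, adjusted p = 0.0306). The call was lost when any library other than DMSO replicate 2 or Dox replicate 4 was left out (adjusted p up to 0.103), with the change between -0.17 and -0.13. In sgAAVS1 cells the level was 137 ± 6.46 CPM with DMSO and 144 ± 5.67 CPM with Dox (log2 fold change 0.07, adjusted p = 0.253), and the difference of the sgIGF2BP3 effect from it was -0.22 (SE 0.06, adjusted p = 0.0105). That difference was no longer called with an offset for GC content and exon length, an alternative added after the data were seen. For the sgIGF2BP2 line the difference from the sgAAVS1 effect was under an unadjusted p of 0.05 but not called. Without sgIGF2BP2 Dox replicate 2 it was -0.16 (adjusted p = 0.0976). Between the sgIGF2BP3 and sgIGF2BP2 Dox effects G3BP2 differed by -0.08, which was not called.

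G3BP1, the main stress-granule scaffold (chr5:151771045-151812785, plus strand), held 247.9, 237.8, 250.8 and 239.2 CPM with siControl and 253.4, 253.3, 246.3 and 247.5 CPM with siIGF2BP2. These groups overlapped while G3BP2 fell (log2 fold change 0.04, 95% interval -0.03 to 0.10, adjusted p = 0.432). The siIGF2BP2 effect on G3BP1 minus the Dox effect was 0.11 (adjusted p = 0.0716). For G3BP1 this passed without sgIGF2BP2 DMSO replicate 2 or Dox replicate 2 (adjusted p = 0.0440 and 0.0404) and with the GC and length offset (adjusted p = 0.00919). Its Dox changes were -0.07, -0.08 and -0.07 in the sgAAVS1, sgIGF2BP2 and sgIGF2BP3 lines, with adjusted p = 0.129, 0.0971 and 0.257. For sgAAVS1 cells G3BP1 passed when DMSO replicate 3 was left out (-0.11, adjusted p = 0.0335) and with the GC and length offset (-0.14, adjusted p = 0.000261). The called changes of G3BP1 were those of siControl against DMSO. They were -0.13 (SE 0.03, adjusted p = 0.00384) in the sgIGF2BP2 line, where means were 243.9 ± 6.38 against 266 ± 9.92 CPM, and -0.18 (SE 0.03, adjusted p = 3.15e-05) in the sgIGF2BP3 line, 238 ± 4.01 against 269.99 ± 6.15 CPM. An exon of G3BP1 overlaps ATOX1 on the opposite strand, and whether the counting used strand is not given in the sources used here. G3BP2 went the other way in the sgIGF2BP2 line, from 139 ± 4.56 to 154 ± 6.30 CPM (log2 fold change 0.14, adjusted p = 0.00691), and in the sgIGF2BP3 line gave 0.02 (adjusted p = 0.839).

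**Figure D3:**
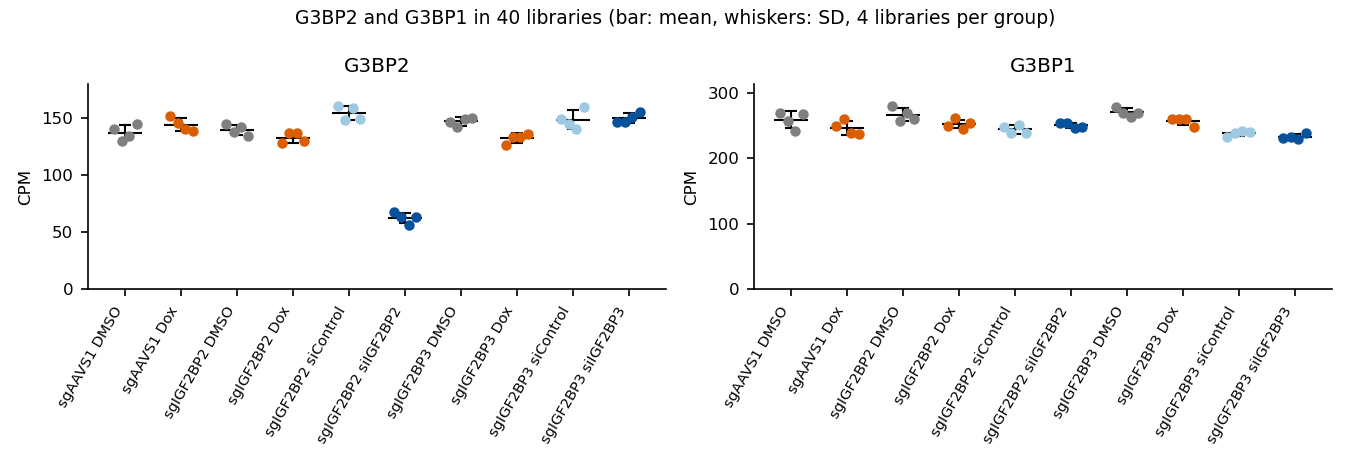
G3BP2 (left) and G3BP1 (right) in CPM in each of the 40 libraries by group, with the group mean as a bar and the SD as whiskers (n = 4). The siIGF2BP2 libraries of G3BP2 lie between 56.0 and 67.3 CPM, under all others, while G3BP1 in the same libraries lies between 246 and 253 CPM.

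CAPRIN1, which binds G3BP and promotes granule assembly (chr11:34051683-34101156, plus strand), fell under both ways of lowering IGF2BP2. With Dox it was 291.3, 268.5, 290.1 and 303.5 CPM against 324.8, 317.8, 335.1 and 325.4 CPM with DMSO. With siIGF2BP2 it was 297.4, 294.3, 267.2 and 288.6 CPM against 321.2, 326.1, 322.9 and 323.2 CPM with siControl. Treated and control libraries did not overlap in either comparison. The log2 fold change was -0.18 (SE 0.03, adjusted p = 3.33e-05) with Dox, and -0.14 (adjusted p = 0.00114) without sgIGF2BP2 Dox replicate 2, its lowest library. With siIGF2BP2 it was -0.17 (SE 0.03, adjusted p = 2.19e-05), and the difference between the effects was 0.006 (95% interval -0.09 to 0.10, adjusted p = 0.950). With the control guides CAPRIN1 was 318 ± 6.26 CPM with DMSO and 313 ± 9.67 CPM with Dox (log2 fold change -0.02, adjusted p = 0.689). The difference of the sgIGF2BP2 from the sgAAVS1 Dox effect was -0.15 (SE 0.05, adjusted p = 0.0311), but it lost its call without any of sgAAVS1 DMSO replicates 1, 2 and 3, sgAAVS1 Dox replicate 1, sgIGF2BP2 DMSO replicate 3 or sgIGF2BP2 Dox replicate 2 (adjusted p up to 0.104). For IGF2BP3 the values were -0.07 with Dox (adjusted p = 0.281) and -0.10 with siIGF2BP3 (adjusted p = 0.124), the latter called in the fit of only the groups compared (adjusted p = 0.0400) and with the GC and length offset (adjusted p = 0.0239). Neither difference from the IGF2BP2 value was called: 0.11 between the Dox effects (adjusted p = 0.220) and 0.08 between the siRNA effects (adjusted p = 0.275). The difference between the Dox effects passed with the GC and length offset (0.14, adjusted p = 0.0142).

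ELAVL1, the HuR protein gene (chr19:7958579-8005659, minus strand), had its lowest group mean with siIGF2BP2, 189.7 CPM. The 4 siIGF2BP2 libraries held 187.1, 191.0, 192.7 and 188.0 CPM and the siControl libraries 224.0, 222.7, 229.6 and 227.0 CPM, without overlap. This is a log2 fold change of -0.25 (SE 0.03, adjusted p = 5.82e-09), or -15.97%. On induction in the sgIGF2BP2 line ELAVL1 went from 228.6, 225.3, 214.8 and 223.0 to 208.1, 198.4, 186.4 and 203.3 CPM, again without overlap. The change was -0.16 (SE 0.03, adjusted p = 0.000210, and 0.000838 without Dox replicate 2). The siIGF2BP2 and Dox effects differed by -0.09 (95% interval -0.18 to 0.002, adjusted p = 0.155), so no difference between them was called. The siIGF2BP3 effect minus the siIGF2BP2 effect was 0.16 (SE 0.05, adjusted p = 0.0119), where siIGF2BP3 itself gave -0.09 (adjusted p = 0.144).

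ELAVL1 also fell on induction with the control guides. Its level in sgAAVS1 cells was 225.8, 225.6, 220.4 and 228.1 CPM with DMSO and 213.7, 216.4, 200.9 and 212.7 CPM with Dox. These groups did not overlap, and the change was -0.09 (SE 0.03, adjusted p = 0.0465). The call was lost when any of the 8 libraries but DMSO replicate 3 was left out (adjusted p up to 0.168). The difference of the sgIGF2BP2 effect from the sgAAVS1 effect was -0.07 (95% interval -0.16 to 0.03, adjusted p = 0.436), and that of the sgIGF2BP3 effect was 0.005 (95% interval -0.09 to 0.10, adjusted p = 0.963). Within the sgIGF2BP3 line the change was -0.09 (adjusted p = 0.139).

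PABPC4 and PABPC1, the cytoplasmic poly(A)-binding proteins, were lowered by Dox in the sgAAVS1 line but not called in the lines with IGF2BP guides. PABPC4 (chr1:39560816-39576790, minus strand) went from 502.2, 514.9, 514.3 and 520.6 to 461.8, 467.8, 453.8 and 476.9 CPM in the sgAAVS1 line, without overlap (log2 fold change -0.14, SE 0.03, adjusted p = 0.000440). In the sgIGF2BP2 line it was 496 ± 3.66 and 499 ± 13.9 CPM (log2 fold change 0.01, adjusted p = 0.851), and in the sgIGF2BP3 line 512 ± 8.83 and 525 ± 8.28 CPM (log2 fold change 0.04, adjusted p = 0.576). Both differences from the sgAAVS1 effect were called: 0.15 (SE 0.04, adjusted p = 0.0172) for sgIGF2BP2 and 0.18 (SE 0.04, adjusted p = 0.00480) for sgIGF2BP3. Without sgIGF2BP2 Dox replicate 2 the first was 0.14 (adjusted p = 0.0402). It also lost its call when only the groups compared were fitted and when no filter was applied.

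PABPC1, the major poly(A)-binding protein, also fell on induction in the sgAAVS1 line. Its sgAAVS1 libraries held 3165, 3048, 3115 and 3304 CPM with DMSO and 3003, 2894, 2915 and 2928 CPM with Dox, without overlap (log2 fold change -0.11, SE 0.03, adjusted p = 0.0150). This call was lost without DMSO replicate 4 or without Dox replicate 2 (adjusted p up to 0.0667). The sgIGF2BP3 line held 3203, 3193, 3172 and 3239 CPM with DMSO and 3255, 3418, 3321 and 3334 CPM with Dox (log2 fold change 0.06, adjusted p = 0.359). The difference between these effects was 0.16 (SE 0.05, adjusted p = 0.0151), and it was no longer called with the GC and length offset. For the sgIGF2BP2 line the difference was 0.12 (adjusted p = 0.0796), called by DESeq2 (adjusted p = 0.0272) and without sgIGF2BP2 Dox replicate 4 (adjusted p = 0.0262).

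Of the poly(A)-binding proteins, siIGF2BP2 lowered PABPC4 from 498.5, 492.5, 506.7 and 530.6 to 459.8, 458.4, 488.4 and 475.5 CPM, without overlap (log2 fold change -0.11, SE 0.03, adjusted p = 0.00327). PABPC1 changed by 0.006 in the same libraries (95% interval -0.06 to 0.07, adjusted p = 0.904). With siIGF2BP3 they gave -0.009 and -0.008 (adjusted p = 0.938 and 0.950). The siIGF2BP2 effect on PABPC4 differed from the Dox effect in that line by -0.12 (SE 0.04, adjusted p = 0.0321). This call was lost in 9 of 24 alternatives, among them leaving out sgIGF2BP2 Dox replicates 2 or 4, siControl replicate 4 or siIGF2BP2 replicates 1 or 2 (adjusted p up to 0.0977). The siIGF2BP3 effect on PABPC4 minus the siIGF2BP2 effect was 0.10 (adjusted p = 0.101), called by DESeq2 (adjusted p = 0.0303) and without siIGF2BP2 replicate 3 (adjusted p = 0.0367).

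**Figure D4:**
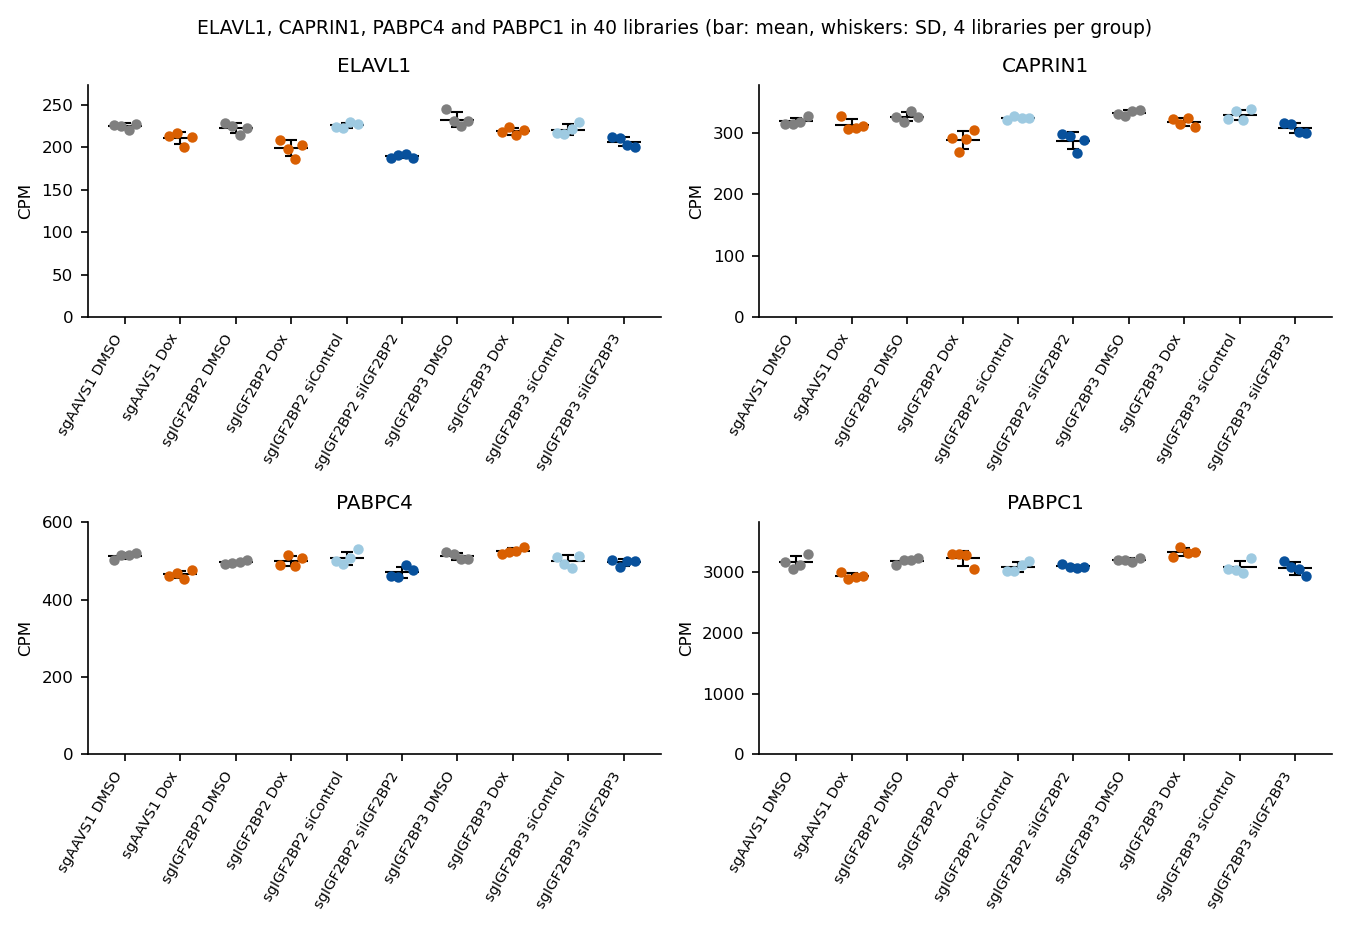
ELAVL1, CAPRIN1, PABPC4 and PABPC1 in CPM in each of the 40 libraries by group, with the group mean as a bar and the SD as whiskers (n = 4). ELAVL1 with siIGF2BP2 lies between 187 and 193 CPM, and PABPC4 with Dox in sgAAVS1 cells between 454 and 477 CPM, under its DMSO libraries.

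YBX1, the mRNA-packaging cold-shock protein gene (chr1:42682427-42702349, plus strand), was lower with Dox in 2 lines. In the sgAAVS1 line it went from 1439.7, 1467, 1595 and 1563 to 1413, 1329, 1405 and 1433 CPM (log2 fold change -0.12, SE 0.04, adjusted p = 0.0206). In the sgIGF2BP2 line it went from 1501, 1544, 1556 and 1582 to 1430.3, 1304, 1479 and 1455 CPM (log2 fold change -0.13, SE 0.04, adjusted p = 0.0111). Neither pair of groups overlapped, and the effects differed by -0.006 (95% interval -0.11 to 0.10, adjusted p = 0.966). The sgIGF2BP2 call was lost without Dox replicate 2, the lowest YBX1 library (-0.09, adjusted p = 0.0968), and the sgAAVS1 call without DMSO replicates 3 or 4 or Dox replicate 2 (adjusted p up to 0.120). In the sgIGF2BP3 line the change was 0.003 (95% interval -0.07 to 0.08, adjusted p = 0.982). siControl against DMSO in the sgIGF2BP2 line gave -0.13 (SE 0.04, adjusted p = 0.0121, and 0.0889 without siControl replicate 1), while siIGF2BP2 and siIGF2BP3 against siControl gave -0.009 and 0.02 (adjusted p = 0.870 and 0.856).

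FMR1, the fragile X translational repressor gene (chrX:147911951-147951125, plus strand), was called only on induction of the sgIGF2BP2 line among the 5 comparisons of a treatment with its control. It held 58.2, 56.0, 55.5 and 54.7 CPM with DMSO and 49.9, 49.5, 50.5 and 50.8 CPM with Dox, without overlap (log2 fold change -0.16, SE 0.05, adjusted p = 0.0216). Without Dox replicate 2 it was -0.15 (adjusted p = 0.0542), and the call was also lost without DMSO replicate 1 (adjusted p up to 0.0648). The sgIGF2BP3 line gave a value close to it, -0.14 (SE 0.05, adjusted p = 0.131), with 58.0 ± 1.03 CPM for DMSO and 52.7 ± 4.54 CPM for Dox and no overlap. In the sgAAVS1 line the change was 0.01 (95% interval -0.09 to 0.12, adjusted p = 0.913). Neither difference from it was called: -0.17 (95% interval -0.32 to -0.03, adjusted p = 0.155) for sgIGF2BP2 and -0.15 (95% interval -0.30 to -0.006, adjusted p = 0.204) for sgIGF2BP3. siIGF2BP2 gave -0.03 (adjusted p = 0.704) and siIGF2BP3 0.02 (adjusted p = 0.906). The siIGF2BP2 effect on FMR1 minus the Dox effect passed only with the GC and length offset (0.17, adjusted p = 0.0268).

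TIA1 and TIAL1, the paired translational silencers, were called in none of the 5 comparisons of a treatment with its control in the edgeR fit. With the GC and length offset both passed for Dox in the sgAAVS1 line (-0.14 and -0.11, adjusted p = 0.0249 and 0.0142). With that offset TIA1 also passed for siControl against DMSO in the sgIGF2BP3 line (0.13, adjusted p = 0.0272). Its siIGF2BP3 effect minus the siIGF2BP2 effect passed there too (-0.17, adjusted p = 0.0457). TIA1 (chr2:70209444-70248660, minus strand) ranged over group means from 44.8 CPM with Dox in the sgIGF2BP2 line to 53.9 CPM with siControl in the sgIGF2BP3 line. Its largest change was with siIGF2BP3, from 59.5, 55.0, 48.9 and 52.4 to 49.4, 48.0, 48.8 and 48.3 CPM (log2 fold change -0.15, SE 0.05, adjusted p = 0.162), and these groups overlapped. An exon of TIA1 overlaps C2orf42 on the same strand. TIAL1 (chr10:119571802-119597029, minus strand) went from 109.3, 104.5, 111.6 and 104.8 to 113.2, 115.0, 113.9 and 115.2 CPM with siIGF2BP2. These libraries did not overlap, yet the change of 0.09 was not called (SE 0.04, adjusted p = 0.0777), and it passed only with the GC and length offset (adjusted p = 0.00388). The called change of TIAL1 was siControl against DMSO in the sgIGF2BP3 line, 104 ± 1.89 against 115 ± 2.31 CPM (log2 fold change -0.15, SE 0.04, adjusted p = 0.00401). The same comparison in the sgIGF2BP2 line gave -0.09 (adjusted p = 0.0888). It passed without DMSO replicate 2 (adjusted p = 0.0320) and with the GC and length offset (adjusted p = 0.0155). The siIGF2BP2 effect on TIAL1 minus the Dox effect, 0.13 (adjusted p = 0.0738), passed without DMSO replicate 2 or Dox replicate 4 (adjusted p = 0.0299 and 0.0376). With the GC and length offset it passed too (adjusted p = 0.00731).

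Other genes of these complexes were read from lists taken from general knowledge, chosen with earlier results of these data known. Of 16 stress-granule scaffold genes and G3BP partners, siIGF2BP2 lowered 8 and raised 0. Of all genes 36.8% were called in either direction and 18.4% were called lower. The median log2 fold change of the 16 was -0.08, against 0.01 over all genes. The largest falls were FAM120A (429 ± 8.33 to 361 ± 24.7 CPM, log2 fold change -0.25, adjusted p = 2.94e-09), SERBP1 (476 ± 4.76 to 405 ± 9.61 CPM, -0.23, adjusted p = 5.51e-09) and UBAP2L, a G3BP partner that nucleates granules (268 ± 10.7 to 228 ± 5.12 CPM, -0.23, adjusted p = 5.36e-06). Dox in the sgIGF2BP2 line lowered 7 and raised 1, with a median of -0.09. Here 20.4% of all genes were called in either direction and 10.4% lower. Without Dox replicate 2 it lowered 4 and raised 1. PRRC2C fell (-0.19, adjusted p = 0.000558, and -0.13, adjusted p = 0.0202, without that library), with overlapping libraries, and FXR2, a paralog of FMR1, rose (0.15, adjusted p = 0.00359, and 0.0115 without it). UBAP2L (-0.16, adjusted p = 0.00346) and ATXN2L (-0.13, adjusted p = 0.00717) also overlapped and lost their calls without it (-0.09 and -0.08, adjusted p = 0.105 and 0.114). Tested directly, the sgIGF2BP2 effect differed from the sgAAVS1 effect for 1 of the 16 genes, near the 6.97% of all genes called. Without Dox replicate 2 this difference was called for 0 of the 16. The sgIGF2BP3 effect differed from the sgIGF2BP2 effect for 0 by edgeR, against 2.91% of all genes called, and for 0 by DESeq2. Of the 16 genes 9 were under an unadjusted p of 0.05, a threshold at which the share of all genes is not given. Among sgAAVS1 libraries 1 rose (ATXN2, 0.15) and 1 fell (PRRC2A, -0.16). In the sgIGF2BP3 line Dox gave 0 calls by edgeR and 0 by DESeq2, with 1 gene under an unadjusted p of 0.05, and siIGF2BP3 raised SERBP1 alone (0.12, adjusted p = 0.0117).

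Of 8 tested IGF2BP ribonucleoprotein partners, the IGF2BPs included, Dox in the sgIGF2BP2 line lowered 7, and 5 without Dox replicate 2. Of all genes 20.4% were called in either direction and 10.4% lower. The difference from the sgAAVS1 effect was called for 3 of the 8, all lower, where 6.97% of all genes were called and 2.97% were lower. Without Dox replicate 2 it was called for 4: the targeted gene IGF2BP2, IGF2BP3, HNRNPU and DHX9. HNRNPU, a nuclear RNA-binding scaffold protein gene, went from 889 ± 11.8 to 749 ± 19.02 CPM (log2 fold change -0.25, SE 0.03, adjusted p = 1.24e-09, and -0.24 without that library). The median was -0.17, and the list holds the targeted gene itself. With siIGF2BP2 3 fell: IGF2BP2, STAU1 (-0.12, adjusted p = 0.000977) and DHX9 (-0.08, adjusted p = 0.0182). Of all genes 18.4% were called lower and 36.8% in either direction, so 3 of 8 is near the share called in either direction. In the sgIGF2BP3 line Dox lowered IGF2BP3 and SYNCRIP (-0.15, adjusted p = 0.0214), and siIGF2BP3 lowered IGF2BP3 and raised HNRNPU (0.10, adjusted p = 0.0403). In the sgAAVS1 line HNRNPU fell (-0.08, adjusted p = 0.0435).

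Among 13 partners and regulators of poly(A)-binding proteins, siIGF2BP2 lowered 3 and raised 1, and 36.8% of all genes were called, so this share is not above the background. The release factor gene GSPT1 went from 286 ± 9.99 to 225 ± 1.204 CPM (log2 fold change -0.35, SE 0.03, adjusted p = 7.39e-14), and the deadenylase subunit gene PAN2 from 12.9 ± 0.987 to 18.8 ± 1.84 CPM (0.55, SE 0.09, adjusted p = 3.92e-07). EIF4G1, the scaffold that links the cap to poly(A)-binding protein, fell with siIGF2BP2 (-0.17, adjusted p = 3.81e-06) and with Dox in the sgAAVS1 (-0.14, adjusted p = 0.000591) and sgIGF2BP2 (-0.09, adjusted p = 0.0347, and 0.0454 without Dox replicate 2) lines. In the sgIGF2BP2 line 1 of the 13 was lower with Dox, and 2 were lower and 1 higher without that library. EIF4G3 fell with siIGF2BP2 (-0.14, adjusted p = 0.00171), and with Dox in the sgAAVS1 line EIF4G3 (0.11, adjusted p = 0.0373) and PAN3 (0.23, adjusted p = 0.00350) rose. In the sgIGF2BP3 line edgeR and DESeq2 each called 0 with Dox (4 genes under an unadjusted p of 0.05) and 0 with siIGF2BP3 (2 genes).

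The list for the eIF2 signal that triggers stress granules had 14 genes. PPP1R15A (GADD34), which directs dephosphorylation of eIF2α, rose in 3 of the 5 comparisons. It went from 254 ± 3.35 to 278 ± 9.66 CPM with Dox in the sgAAVS1 line (log2 fold change 0.13, adjusted p = 0.00484), from 262 ± 8.42 to 310.5 ± 18.7 CPM with Dox in the sgIGF2BP2 line (0.25, adjusted p = 5.01e-08, and 0.21 without Dox replicate 2), and from 274 ± 7.97 to 322 ± 9.77 CPM with siIGF2BP2 (0.23, adjusted p = 4.80e-08). With siIGF2BP3 the kinase gene EIF2AK4 (GCN2; -0.29, adjusted p = 1.21e-06) and PPP1R15B (-0.29, adjusted p = 0.000246) fell. siIGF2BP2 lowered 4 of the 14, among them EIF2B3 (-0.26, adjusted p = 0.0122), EIF2B2 (-0.23, adjusted p = 0.000259) and EIF2B4 (-0.17, adjusted p = 0.00318), subunits of the eIF2 exchange factor. This is 5 called genes of 14 with PPP1R15A, near the 36.8% of all genes. The sgAAVS1 line had 3 higher and 1 lower with Dox, against 15.9% of all genes called. The kinase gene EIF2AK3 (PERK; 0.31, adjusted p = 0.0437) and EIF2S3 (0.13, adjusted p = 0.00212) rose there with PPP1R15A, and EIF2B5 (-0.13, adjusted p = 0.0312) fell. The sgIGF2BP2 line had 2 higher and 1 lower, near its background of 20.4%, and the same counts without Dox replicate 2. EIF2B2 (0.17, adjusted p = 0.0127) rose there and EIF2B1 (-0.17, adjusted p = 0.0109) fell. The sgIGF2BP3 line had 0 by edgeR and 0 by DESeq2 with Dox, with 1 gene under an unadjusted p of 0.05.

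Of 10 paralogs of the members only 4 were tested. CAPRIN2, the paralog of CAPRIN1, rose with Dox in the sgAAVS1 line from 315 ± 2.26 to 411 ± 9.82 CPM (log2 fold change 0.38, SE 0.04, adjusted p = 2.11e-12) and in the sgIGF2BP2 line from 310.02 ± 3.52 to 344 ± 31.0 CPM (0.15, adjusted p = 0.00207). The latter groups overlapped, and without Dox replicate 2 the change was 0.21 (adjusted p = 1.28e-06). CAPRIN1 itself changed by -0.02 and -0.18 in these comparisons. YBX3, a paralog of YBX1, rose with Dox in the sgIGF2BP2 line (0.26, adjusted p = 2.18e-05, and 0.25 without Dox replicate 2) and fell with siIGF2BP2 (-0.21, adjusted p = 0.000269). PABPC1L fell with siIGF2BP2 (-0.23, adjusted p = 1.86e-05).

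The genes whose group means were most like a member's over the 10 groups were found for the 3 members with the widest range. For G3BP2 they were BICD2, HIPK2 and TRUB1, with Pearson's r of 0.993, 0.993 and 0.992 over 10 group means of log2 CPM. With siIGF2BP2 these changed by -0.70, -0.38 and -1.49, against -0.04, -0.007 and 0.02 with Dox in the sgIGF2BP2 line, so the likeness rests on the siIGF2BP2 group. For ELAVL1 they were TMED2 (0.972), NAA50 (0.960) and CAPRIN1 (0.953). For FMR1 they were CCNA2, SHCBP1 and DEPDC1 (0.967, 0.967 and 0.966), which changed by -0.33, -0.27 and -0.18 with Dox in the sgIGF2BP2 line. These points share libraries and totals, and the values are descriptions.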

How the data were processed

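Poly(A) RNA of 40 RKO cultures was prepared by the SLAMseq protocol and sequenced as directional single-read libraries, per the labels. The submitters' processing notes name bcl2fastq 2.20.0.422, STAR 2.7.5c and hg38; the counting tool, annotation and use of strand are not given in the sources used here. The deposited values are the authors' whole-number counts per Ensembl gene (19962 genes, 10018181 to 24822807 per library), which limit the precision of low genes. From them, CPM with TMM factors and the edgeR quasi-likelihood test (edgeR 4.0.16, limma 3.58.1, R 4.3.3) were computed in 1 fit of all 40 libraries with a coefficient per group, after filterByExpr, with Benjamini-Hochberg adjustment over 11428 genes and a threshold of 0.05. The SE is the log2 fold change divided by the square root of F. Differences between effects were contrasts of the same fit. Members were matched by gene ID, and positions, exon lengths and overlaps come from GENCODE 29 on the same build. The alternatives were DESeq2 1.42.0, DESeq2 size factors within edgeR, no filter, only the groups compared, a replicate block, each library left out, a null of 1.2-fold, thinning to the smallest total and, added after seeing the data, a GC and length offset and, for the lists, leaving out sgIGF2BP2 Dox replicate 2. All members are named; from each list up to 3 called genes per direction with the largest change, and the 3 most alike genes for the 3 widest-ranging members. Of the 10 IGF2BP partners, MATR3 has 2 identifiers and was left out, and IGF2BP1 did not pass the filter. The members, lists and tests were chosen with earlier results of these data known. The scripts were tested on simulated data. 1 gene that this rule would name is not reported here.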

Additional observations from a re-analysis of the deposited data

Results flagged for a closer look

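A single library lay far from the other 3 of its group in 5 of the 100 member and group combinations examined, a share that chance gives in about 1 in 20. These were G3BP1 at 248 CPM in sgIGF2BP3 Dox replicate 4, TIA1 at 53.2 CPM in siIGF2BP2 replicate 2, PABPC1 at 3048 CPM in sgIGF2BP2 Dox replicate 4, PABPC1 at 3136 CPM in siIGF2BP2 replicate 1, and YBX1 at 1536 CPM in sgIGF2BP3 DMSO replicate 4.

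The same kind of treatment gave different effects between lines or pools for 7 member contrasts, each tested as a difference of log2 fold changes in edgeR. Against the sgAAVS1 Dox effect, the sgIGF2BP2 Dox effect differed by 0.15 for PABPC4 and by -0.15 for CAPRIN1. The sgIGF2BP3 Dox effect differed by 0.18 for PABPC4, 0.16 for PABPC1 and -0.22 for G3BP2. The siIGF2BP3 effect differed from the siIGF2BP2 effect by 1.32 for G3BP2 and 0.16 for ELAVL1. The adjusted p-values stand beside each gene above. With each library left out in turn, the CAPRIN1 call was lost in 6 of 16 cases and the other 6 kept theirs. Their ranges were 0.14 to 0.17 and 0.17 to 0.19 for PABPC4 in the sgIGF2BP2 and sgIGF2BP3 lines against sgAAVS1, 0.14 to 0.18 for PABPC1, -0.25 to -0.19 for G3BP2 against sgAAVS1, 1.27 to 1.35 for G3BP2 between the siRNA effects and 0.15 to 0.18 for ELAVL1.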

How the results depend on the processing

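No member's change reversed its sign where it was called, in any alternative. G3BP2 kept its call with siIGF2BP2 in all 16 alternatives and in both differences in all 24. Against a null of 1.2-fold, 1 member remained called with siIGF2BP2, 1 in the difference of the siRNA effects and 1 in the siIGF2BP2 effect minus the Dox effect, each G3BP2, and 0 in both IGF2BP Dox comparisons, the sgAAVS1 Dox comparison, both differences from sgAAVS1 and both siControl comparisons. With the GC and length offset the count was 7 for sgAAVS1 Dox, 1 for siIGF2BP3, 1 for sgIGF2BP3 minus sgAAVS1, 1 for sgIGF2BP3 minus sgIGF2BP2, 4 for siControl against DMSO in the sgIGF2BP3 line and 4 for the siIGF2BP2 effect minus the Dox effect. Thinned to the smallest total, it was 0 for sgIGF2BP3 Dox and 1 for sgIGF2BP2 minus sgAAVS1. Without a filter it was 1 for sgIGF2BP2 minus sgAAVS1 and 1 for siIGF2BP2 minus Dox. With only the groups compared, which leaves fewer samples for the spread, it was 1 for siIGF2BP3, 0 for sgIGF2BP2 minus sgAAVS1 and 1 for siIGF2BP2 minus Dox. The cause of the other shifts was not tested. Over all genes the called count moved by more than 1.5 times with the 1.2-fold null in every comparison (4202 to 512 with siIGF2BP2, 2326 to 117 with sgIGF2BP2 Dox, 1820 to 50 with sgAAVS1 Dox, 302 to 8 with sgIGF2BP3 Dox, 267 to 16 with siIGF2BP3), with only the groups compared for sgIGF2BP3 Dox (477), siIGF2BP3 (465) and siIGF2BP3 minus sgIGF2BP3 Dox (155 to 284), and with the offset for siIGF2BP3 (479), sgIGF2BP3 minus sgAAVS1 (889 to 392) and sgIGF2BP3 minus sgIGF2BP2 (333 to 667). Apart from leaving out single libraries, the line comparisons with DMSO, 2 genes each, gave at most 4 and 35, both without a filter. Without sgAAVS1 DMSO replicate 4 the sgIGF2BP3 against sgAAVS1 comparison with DMSO gave 74. The count for sgIGF2BP3 Dox went as low as 108 without sgIGF2BP3 Dox replicate 4. For sgIGF2BP3 minus sgAAVS1 it was 428 without sgIGF2BP3 Dox replicate 4 and 1415 without sgAAVS1 DMSO replicate 4.

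Leaving out each library in turn gave 1 to 4 members for sgAAVS1 Dox, 2 to 4 for sgIGF2BP2 Dox, 0 to 1 for sgIGF2BP3 Dox, 1 to 3 for sgIGF2BP2 minus sgAAVS1, 2 to 3 for the difference of the siRNA effects, 2 to 4 for siControl against DMSO in the sgIGF2BP2 line and 1 to 4 for siIGF2BP2 minus Dox. No member had under 428 counts in a library, and the common coefficient of variation of the fit, 3.79%, limits small changes.

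Same-numbered libraries had correlations of deviations from -0.0896 to 0.0966, none over the 0.1 required, so the samples were not treated as paired. This threshold cannot show that a weaker link between same-numbered samples is absent. With the replicate block the counts of called members were those without it in all 15 comparisons: 4, 4, 1, 4 and 0 for the 5 treatments. In 2 of 9 comparisons, siControl against DMSO in the sgIGF2BP2 line and the sgIGF2BP3 against the sgAAVS1 line with DMSO, 8 of 8 libraries correlated best with their own number.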
